A study of Mus musculus with 35 samples.

Results

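The 54 genes described here are the axon guidance ligands and receptors of 5 families: ephrins and Eph receptors, semaphorins with plexins and neuropilins, netrin with its receptors, Slits with Robo receptors, and the repulsive guidance molecules (RGMs). They were taken by gene symbol from a fixed list, and all 54 were found among the 30723 gene symbols of the tables. RNA was measured by bulk RNA-seq in 35 libraries of wild-type CD1 mouse embryos at embryonic day 11.5. Neural tissue was dorsal brain (dB, 6 libraries) and ventral brain (vB, 6 libraries), which the sample names call neural tube. Facial tissue was the frontonasal prominence (FNP, 6 libraries), the mandibular prominence (MNP, 6 libraries) and the maxillary prominence (MXP, 5 libraries), the outgrowths that build the face, and limb (6 libraries) was the remaining tissue. Each library was made from the pooled tissue of several embryos.

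Growing axons, migrating neurons and neural crest cells read these cues at their surface. Ephrins are held in the membrane and bind Eph receptor tyrosine kinases on touching cells. Secreted semaphorins bind neuropilins and plexins, netrin binds Dcc, neogenin and the Unc5 receptors, and Slits bind Robo receptors. The same families act outside the nervous system, in blood vessels, limb buds and the palate.

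The deposited values were FPKM, fragment counts divided by transcript length and library size, estimated per transcript and summed here per gene. Levels below are FPKM, and each set of 3 values is the lowest, the median and the highest library of a tissue, with all 5 libraries given for MXP. Differences are on the scale of log2(FPKM + 1), from 1 limma fit to all libraries, which covered 13934 genes with a mean of 1 FPKM or more in any tissue. Changes of weakly expressed genes come out too small on this scale. Genes are called where the p value, adjusted by Benjamini and Hochberg's method, was under 0.05 and levels differed by a fold of 2 or more, and every adjusted p below comes from that limma fit. Neural, facial and limb levels were compared as means of tissue means.

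Libraries differed in depth and in makeup. The coverage that went with 1 FPKM was 2.70 to 5.51, and 11742 to 12955 genes reached 1 FPKM in a library. Replicate 4 stood apart: among the guidance genes that averaged 1 FPKM or more in a tissue it was the lowest of the 6 libraries for 76.5% of 51 genes in dB, 79.6% of 49 in vB and 83.7% of 43 in limb, against 35.3%, 49.7% and 41.0% of all such genes. In FNP it was lowest for 56.5% of 46 guidance genes and 28.2% of all such genes. In MNP it was lowest for 32.6% of 43 and 21.7% of all, and there replicate 3 was lowest more often, for 41.9% and 24.1%. The sum over 9 neuron markers was 571 to 1060 FPKM in dB and 669 to 1636 FPKM in vB, against 46.5 to 175 FPKM in facial libraries and 27.6 to 52.9 FPKM in limb. The sum over 9 mesenchyme markers was 6.78 to 357 FPKM in neural libraries, against 616 to 1313 FPKM in facial libraries and 492 to 751 FPKM in limb. No marker of either list was listed at 0 throughout a tissue. These sums moved with the neural comparisons below, and their part in the results was not tested. In bulk tissue, fewer cells of a type and less RNA per cell cannot be told apart.

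Most of these genes were present in every tissue. Of the 54 genes, 41 averaged 1 FPKM or more in all 6 tissues and 53 in at least 1. The exception was Unc5d, a netrin receptor, whose tissue means ran from 0.121 in limb to 0.732 FPKM in MXP and which was not tested. A mean of 10 FPKM was reached by 33 genes in at least 1 tissue and by 13 genes in all 6. The highest mean lay in brain for 23 genes, in a facial prominence for 22 and in limb for 9. The number of genes at 1 FPKM or more was 51 in dB, 49 in vB, 46 in FNP, 43 in MNP, 46 in MXP and 43 in limb.

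**Figure D1:**
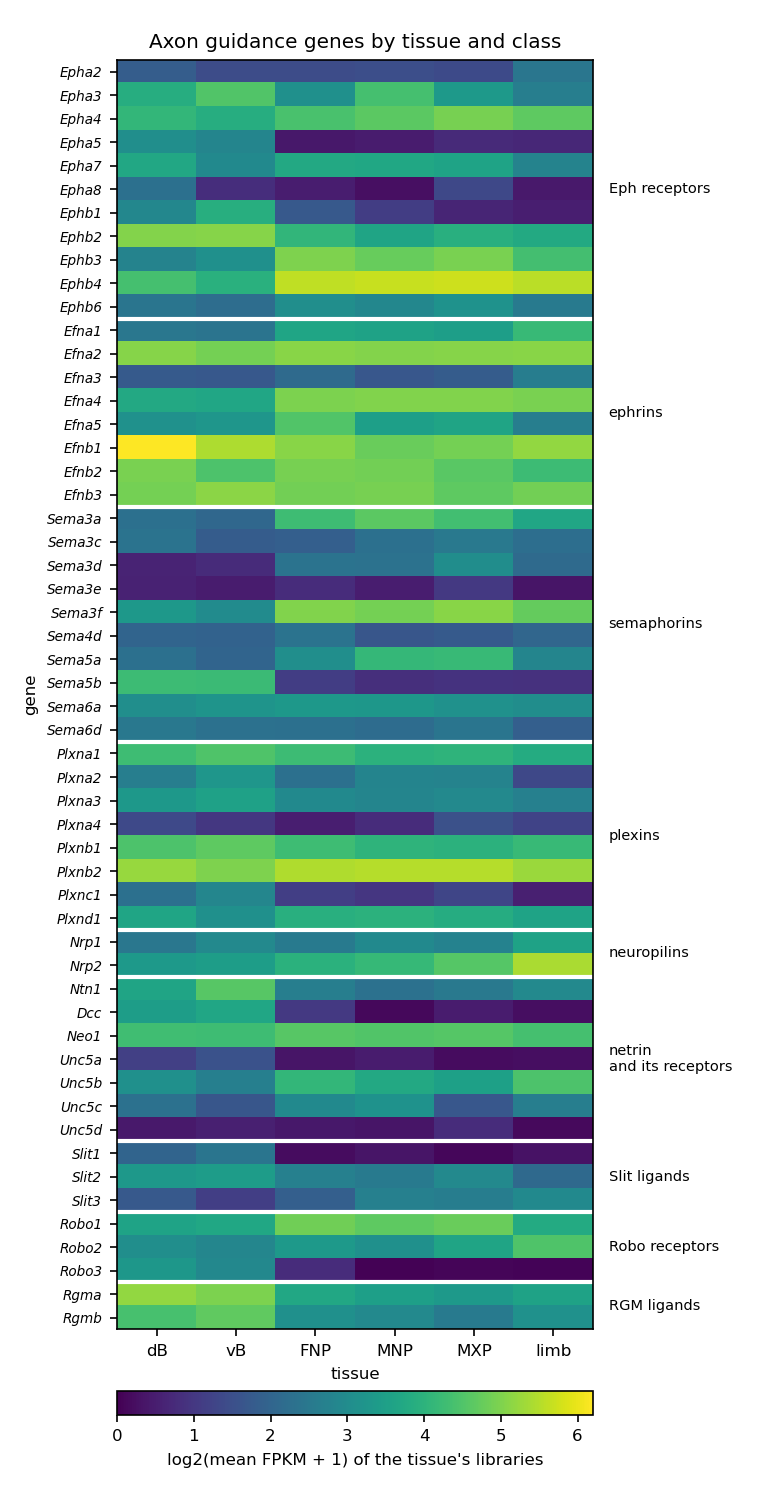
Mean level of the 54 guidance genes by tissue, with genes in rows by class, tissues in columns and the colour as log2(mean FPKM + 1). Sema5b, Dcc, Robo3, Epha5 and Slit1 are lighter (higher) in both brain columns than in the 4 darker columns, while Efna2 and Plxnb2 are light in all 6.

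Brain differed from the other tissues in both directions. Against facial tissue, 11 of 53 tested guidance genes were higher in brain, with 6.64% of all genes called in that direction, and 9 were lower, with 4.64% of all genes called. Against limb, 16 were higher, with 8.05% of all genes called, and 11 were lower, with 4.36% of all genes called. The libraries of the compared tissues did not overlap for 11 of the 20 genes called against facial tissue and for 16 of the 27 called against limb, and among all called genes they did not overlap for 56.5% and 75.8%. The median difference over the 53 genes was -0.12 against facial tissue and 0.06 against limb, and over all genes it was -0.02 and -0.01. Counting each of the 15 pairs of tissues, 36 of the 53 genes were called in at least 1 pair, and 21.3% of all genes were.

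**Figure D2:**
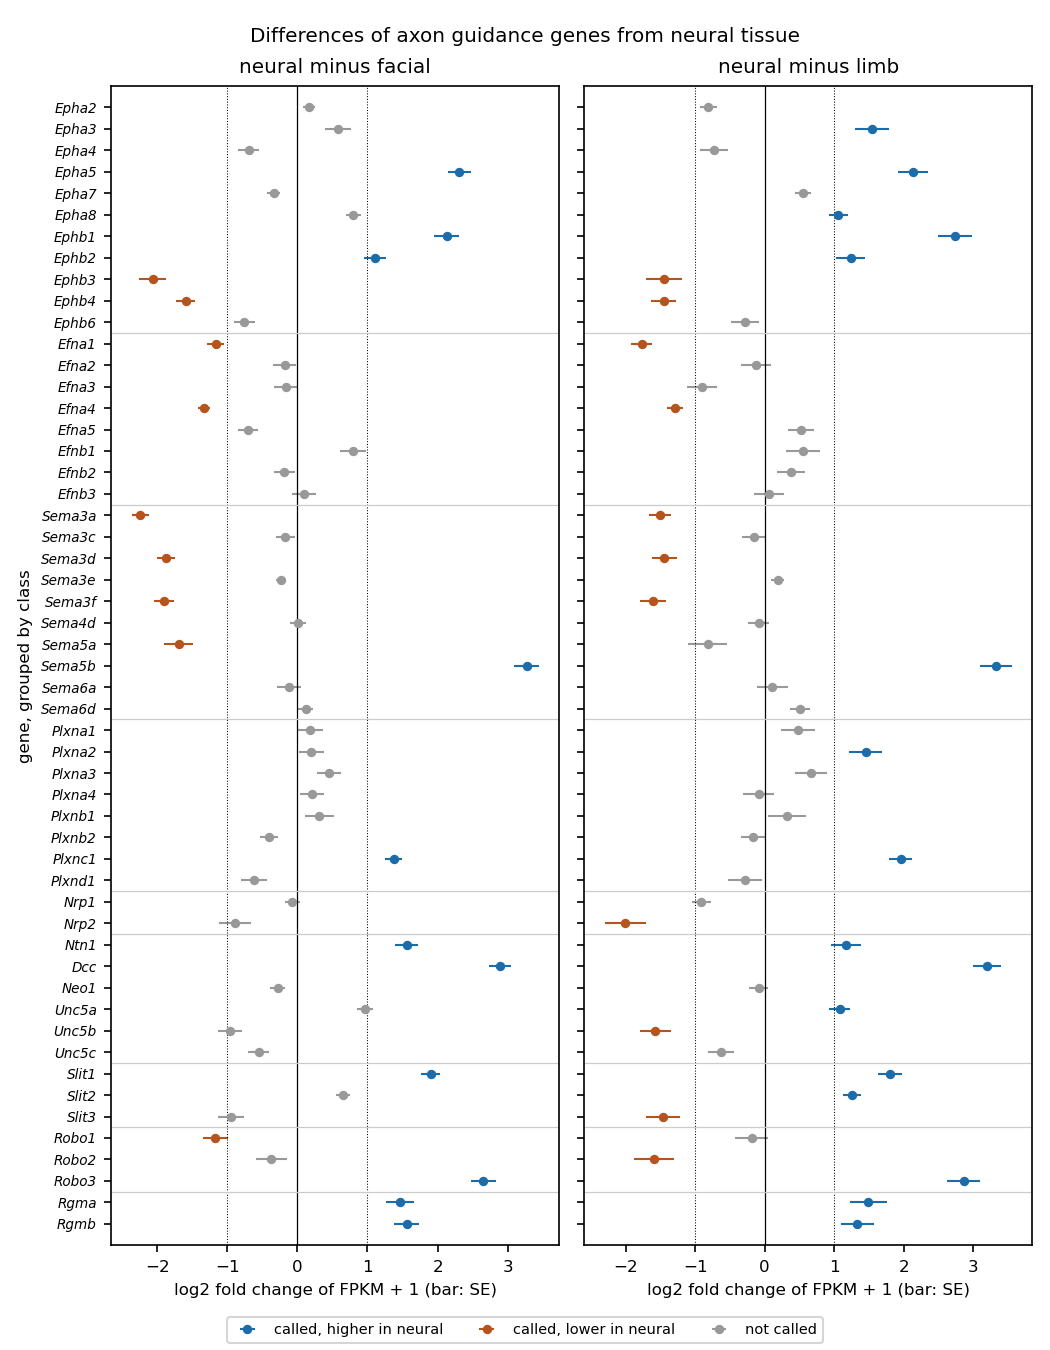
Difference of each of the 53 tested guidance genes, neural minus facial at left and neural minus limb at right, as log2 fold change of FPKM + 1 with its SE as a bar. Dotted lines mark a fold of 2, and coloured points were called higher (blue) or lower (brown) in neural tissue. Against facial tissue 11 points are blue and 9 are brown, and against limb 16 are blue and 11 are brown.

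Among the netrin genes, the ligand and its attractive receptor were high in brain, and the repulsive receptors were not alike. Ntn1 encodes netrin-1, the floor plate cue that draws commissural axons. Ntn1 had 6.77, 10.04 and 19.2 FPKM in dB and 7.98, 25.6 and 30.1 FPKM in vB. Outside the brain Ntn1 had 4.11, 4.93 and 7.58 FPKM in FNP, 2.27, 3.83 and 5.40 in MNP, 3.29, 4.71, 5.00, 5.10 and 5.52 in MXP and 2.84, 6.85 and 8.96 in limb. The 5 high vB libraries lay above every other library of the series, vB replicate 4 had 7.98 FPKM, and dB overlapped with limb and FNP. The neural minus facial difference of Ntn1 was 1.56 (SE 0.17, adjusted p = 8.42e-10), and the neural minus limb difference was 1.17 (SE 0.22, adjusted p = 3.78e-05). In replicates 4 to 6 alone the limb difference was 1.04, with an adjusted p of 0.0533.

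Dcc is the receptor through which netrin attracts axons. Dcc had 6.48, 8.35 and 19.6 FPKM in dB and 6.00, 10.1 and 24.3 FPKM in vB. It had 0.517, 1.03 and 1.57 FPKM in FNP, 0.0185, 0.0882 and 0.203 in MNP, 0.185, 0.225, 0.366, 0.537 and 0.609 in MXP and 0.0519, 0.101 and 0.455 in limb. No brain library overlapped with a facial or limb library, and FNP lay above MNP throughout. The differences of Dcc were 2.89 (SE 0.15, adjusted p = 2.76e-17) against facial tissue and 3.20 (SE 0.20, adjusted p = 4.44e-15) against limb. The neuron marker sum was 133 to 175 FPKM in FNP and 46.5 to 61.7 FPKM in MNP, and its part in the Dcc values was not tested. Neo1 encodes neogenin, a relative of Dcc that binds netrin and RGMs. Its tissue means were close to each other, from 18.4 in vB to 23.1 FPKM in FNP, and it was called in no comparison.

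Unc5a, Unc5b and Unc5c encode receptors that turn netrin into a repellent. Unc5a had 0.809, 1.36 and 1.55 FPKM in dB and 0.1596, 2.12 and 3.06 in vB, against 0.0872, 0.1596 and 0.297 FPKM in limb. It was higher in brain than in limb by 1.08 (SE 0.15, adjusted p = 3.27e-07), with only vB replicate 4 (0.1596 FPKM) inside the range of limb. That call was lost in replicates 4 to 6 alone (difference 0.85) and after quantile normalization (0.84). Against facial tissue the difference of Unc5a, 0.96 (SE 0.11, adjusted p = 9.1e-09), was under a fold of 2. With a pseudocount of 0.1 that facial difference was 2.07 and was called. Unc5b ran the other way. It had 3.58, 7.88 and 10.01 FPKM in dB and 1.20, 5.95 and 7.70 in vB. It had 11.6, 15.8 and 21.3 FPKM in FNP, 10.3, 11.8 and 16.0 in MNP, 8.97, 10.1, 10.7, 11.2 and 11.97 in MXP and 8.42, 22.2 and 27.5 in limb. Brain was below limb by -1.57 (SE 0.22, adjusted p = 3.19e-07), and only limb replicate 4 (8.42 FPKM) reached down into the neural range. The difference of Unc5b from facial tissue, -0.96 (SE 0.17, adjusted p = 8.53e-06), was under a fold of 2.

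Unc5b also differed in which of its transcripts was counted. The tables hold a pair of Unc5b transcripts, of 5867 and 5834 bases, that differ by 33 bases. In the GENCODE annotation (GRCm38, the mm10 assembly) a coding exon of that length, exon 8 of 17, lies at chr10:60777185-60777217 on the minus strand and is skipped in another coding transcript. The match rests on the length alone. The exon is printed in capitals throughout, since by that match all 33 bases set the transcripts apart:
Unc5b exon: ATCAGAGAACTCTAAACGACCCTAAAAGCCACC
The longer transcript held 0.0376, 45.3 and 65.3% of the FPKM of the pair in neural libraries, against 67.7, 82.2 and 97.0% in facial libraries and 82.4, 91.2 and 99.9% in limb. The neural range did not reach the facial range. In FPKM the longer transcript averaged 3.01 ± 1.33 in neural tissue (SD, n = 12), against 10.9 ± 3.16 in facial tissue (n = 17) and 19.2 ± 5.92 in limb (n = 6). The shorter transcript averaged 3.54 ± 1.52 FPKM in neural tissue, against 2.33 ± 1.26 in facial tissue and 1.99 ± 1.42 in limb. These shares were estimated by the authors' software from reads that both transcripts share, so they are given as a description with no test.

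RGMs bind neogenin and also act as co-receptors for bone morphogenetic proteins. Both measured RGM genes were higher in brain. Rgma had 23.0, 37.4 and 46.1 FPKM in dB and 6.06, 34.1 and 46.0 FPKM in vB. Elsewhere it had 8.46, 12.9 and 14.6 FPKM in FNP, 8.31, 9.77 and 13.6 in MNP, 6.83, 7.10, 8.44, 11.0 and 11.6 in MXP and 3.93, 11.1 and 17.0 in limb. Only vB replicate 4 (6.06 FPKM) fell inside the range of the other tissues. The differences of Rgma were 1.46 (SE 0.20, adjusted p = 1.53e-07) against facial tissue and 1.49 (SE 0.27, adjusted p = 1.84e-05) against limb. Fitted on its most abundant transcript alone, they were 0.17 and 0.22, and both calls were lost. In replicates 4 to 6 alone the limb difference was 1.24 and was not called.

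The transcripts of Rgma were unlike in this. The transcript with the earlier start averaged 22.4 ± 6.69 FPKM in dB and 19.9 ± 12.8 in vB, against 2.247 ± 0.874 in FNP, 1.78 ± 1.51 in MNP, 1.03 ± 0.449 in MXP and 1.93 ± 0.868 in limb (SD, n = 6 each, 5 for MXP). The transcript with the later start averaged 12.9 ± 4.54 FPKM in dB and 10.3 ± 7.49 in vB, against 9.85 ± 1.81 in FNP, 8.53 ± 1.48 in MNP, 7.95 ± 1.80 in MXP and 8.98 ± 3.65 in limb. The earlier start held 37.2, 63.9 and 90.9% of the FPKM of both in neural libraries, against 7.02, 13.7 and 39.9% in facial libraries and 13.1, 18.0 and 20.5% in limb. Neural and limb ranges did not overlap, and 1 MNP library lay above the lowest neural value.

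Rgmb, the other RGM, had 10.3, 19.6 and 29.5 FPKM in dB and 6.65, 26.2 and 36.6 in vB. Its facial and limb levels were 5.78, 8.24 and 8.86 FPKM in FNP, 4.80, 6.90 and 7.31 in MNP, 3.49, 4.50, 4.88, 5.696 and 5.86 in MXP and 3.26, 8.07 and 11.1 in limb. Brain lay above the face except for vB replicate 4, at 6.65 FPKM. The differences of Rgmb were 1.56 (SE 0.18, adjusted p = 4.32e-09) against facial tissue and 1.34 (SE 0.24, adjusted p = 1.74e-05) against limb. The call against limb was lost in replicates 4 to 6 alone, where the difference was 1.11.

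**Figure D3:**
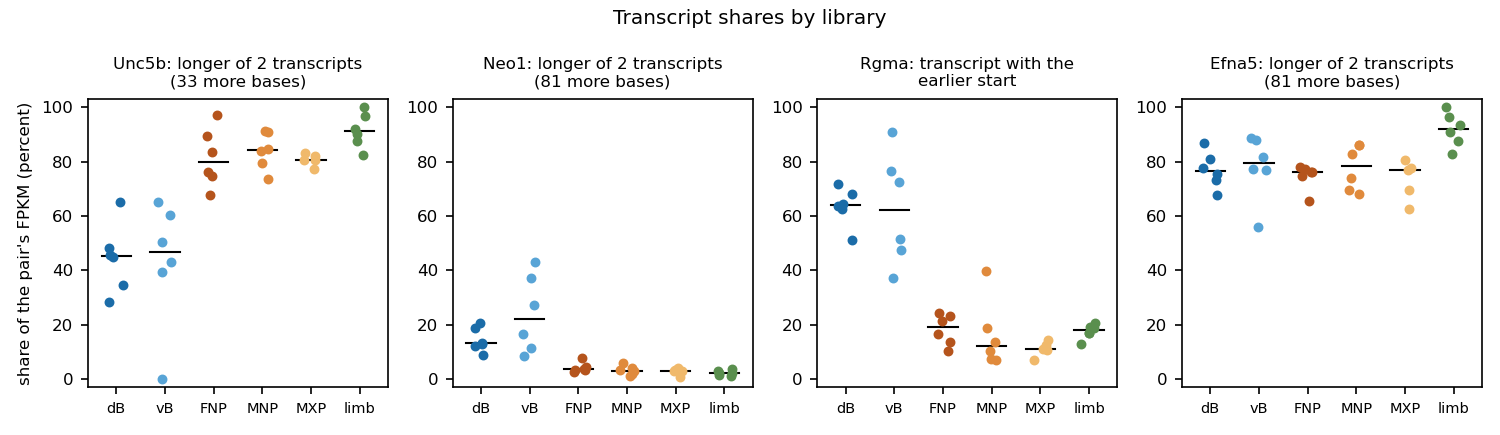
Share of the first transcript in the FPKM of a pair of transcripts of the same gene, in percent, by tissue, with 1 point per library and a line at the median. For Unc5b the neural libraries lie at or below 65.3% and the facial and limb libraries at or above 67.7%, and for Neo1 the neural libraries lie at or above 8.50% and the others at or below 7.63%.

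Neo1, whose level was called in no comparison, also differed in its transcripts. The tables hold Neo1 transcripts of 7386 and 7305 bases, and the longer held 8.50, 14.9 and 43.2% of the FPKM of the pair in neural libraries, against 0.842, 3.27 and 7.63% in facial libraries and 1.02, 2.33 and 3.65% in limb. Neural libraries did not overlap with the others. No single exon of the 81 bases between them was found in the annotation, so no sequence is shown. For Efna5, Unc5c, Nrp2 and Slit2 the shares of neural and facial libraries overlapped.

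Slits repel axons from the midline through Robo receptors, and each of the 3 Slit genes had a pattern of its own. Slit1, which is mainly neural, had 2.00, 2.64 and 5.15 FPKM in dB and 1.23, 4.64 and 7.14 in vB. It had 0.0421, 0.122 and 0.354 FPKM in FNP, 0.172, 0.267 and 0.408 in MNP, 0.00860, 0.0546, 0.0557, 0.128 and 0.141 in MXP and 0.101, 0.240 and 0.377 in limb. Every brain library lay above every other library, with differences of 1.90 (SE 0.13, adjusted p = 3.65e-14) against facial tissue and 1.81 (SE 0.17, adjusted p = 1.7e-10) against limb. Slit2 had 6.11, 8.85 and 11.9 FPKM in dB and 8.18, 9.10 and 12.5 in vB. Slit2 outside the brain had 4.31, 5.42 and 7.13 FPKM in FNP, 3.71, 4.63 and 6.93 in MNP, 5.06, 5.36, 5.39, 7.33 and 9.60 in MXP and 2.78, 3.18 and 4.18 in limb. It was higher in brain than in limb, with no overlap, by 1.26 (SE 0.13, adjusted p = 1.34e-09), while the difference from the face, 0.65 (SE 0.10, adjusted p = 1.52e-06), was under a fold of 2.

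Slit3 was lowest in brain. It had 1.38, 2.19 and 3.32 FPKM in dB and 0.382, 0.795 and 2.92 in vB. In the other tissues Slit3 had 1.69, 2.46 and 4.46 FPKM in FNP, 3.56, 4.88 and 9.54 in MNP, 2.70, 3.31, 3.53, 6.69 and 9.81 in MXP and 1.946, 7.23 and 9.19 in limb. Limb replicate 4, at 1.946 FPKM, was the only limb library inside the neural range. The neural minus limb difference was -1.46 (SE 0.25, adjusted p = 7.48e-06).

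The Robo receptors split the same way. Robo3, a divergent family member that lets commissural axons cross the midline, had 5.17, 8.84 and 12.2 FPKM in dB and 1.23, 6.49 and 14.7 in vB. It had 0.128, 0.564 and 1.47 FPKM in FNP and 0.0185, 0.0223 and 0.128 FPKM in limb. It was near or at 0 in MNP, with 0, 0.0111 and 0.0702 FPKM, and in MXP, with 0, 0, 0.0154, 0.0769 and 0.198 FPKM. The overlap with the face came from vB replicate 4 (1.23 FPKM) and from FNP replicates 4 and 5 (1.47 and 1.31 FPKM), and no limb library reached the brain. The differences of Robo3 were 2.65 (SE 0.18, adjusted p = 1.71e-14) against facial tissue and 2.87 (SE 0.24, adjusted p = 4.25e-12) against limb. The neural progenitor marker sum was 228 FPKM in FNP replicate 4 and 189 FPKM in FNP replicate 5, against 70.0 to 100.4 FPKM in the other FNP libraries. The neuron marker sum was not raised there, with 161.2 and 173.5 FPKM, against 133.3 to 175.3 FPKM in the other FNP libraries. The part of either sum was not tested.

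Robo1, a receptor of Slits, was lower in brain than in the face. It had 5.53, 10.1 and 21.6 FPKM in dB and 5.75, 11.3 and 20.1 in vB. Its levels were 14.7, 26.8 and 43.9 FPKM in FNP, 16.6, 23.1 and 37.2 in MNP, 18.9, 22.2, 22.5, 31.2 and 37.9 in MXP and 7.96, 13.01 and 19.0 in limb. Ranges overlapped, and the neural minus facial difference was -1.17 (SE 0.17, adjusted p = 7.44e-07). Robo2 was highest in limb. It had 3.94, 6.44 and 14.1 FPKM in dB and 2.55, 6.16 and 11.3 in vB, with 3.14, 9.26 and 17.0 in FNP, 4.56, 7.13 and 12.98 in MNP, 4.29, 7.38, 12.1, 14.4 and 18.7 in MXP and 13.2, 21.3 and 30.0 in limb. A single brain library, at 14.1 FPKM, reached the limb range. The neural minus limb difference of Robo2 was -1.60 (SE 0.29, adjusted p = 2.16e-05), and Robo2 was also lower in facial tissue than in limb by -1.23 (SE 0.27, adjusted p = 0.00154). With replicates 1 to 3 alone the facial difference was -0.97 and was not called.

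**Figure D4:**
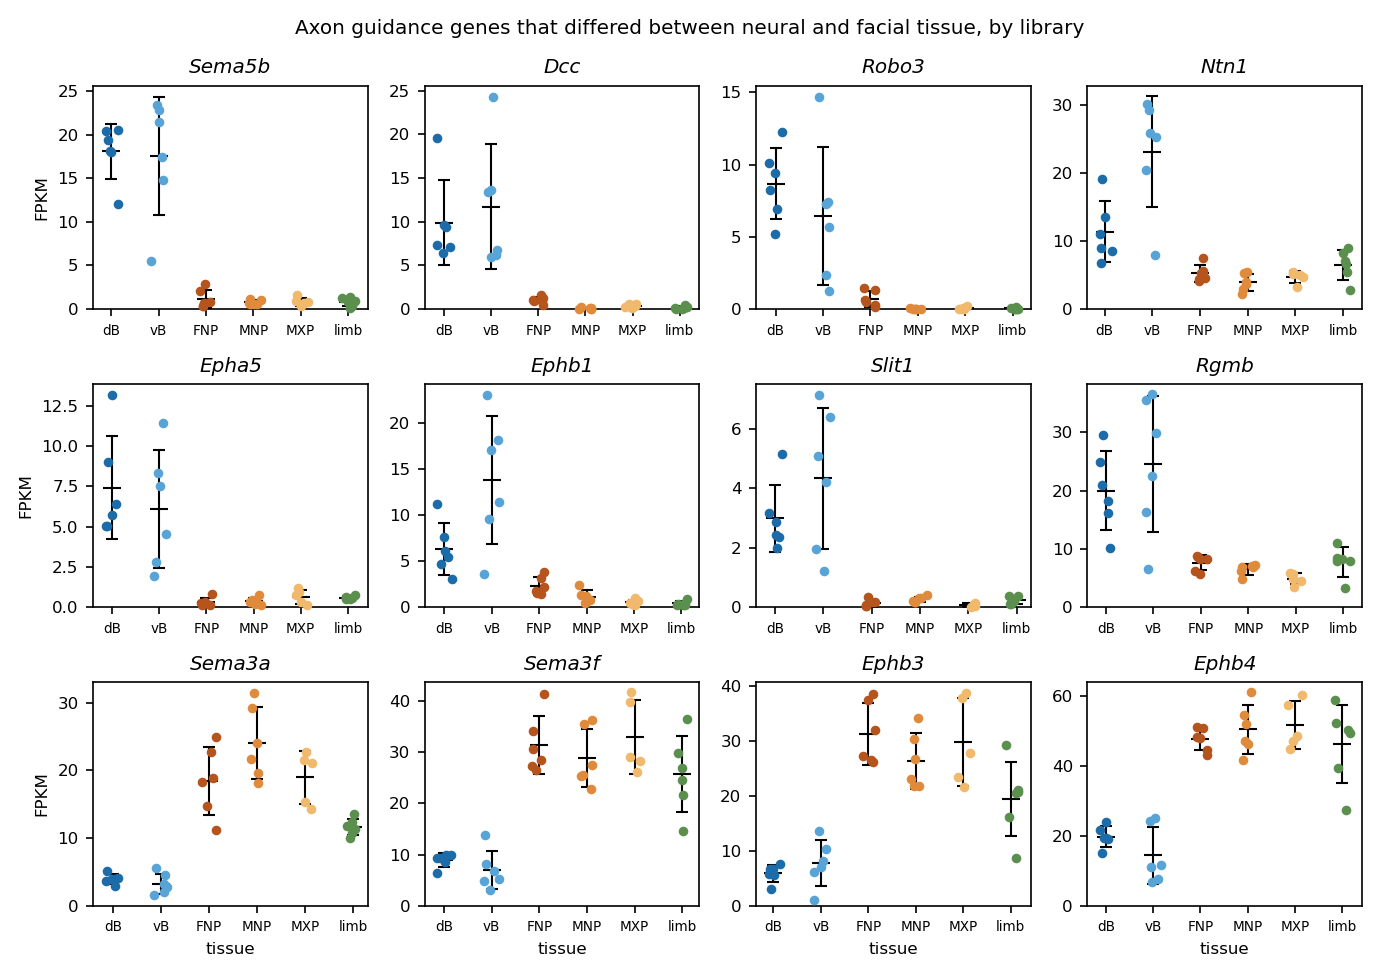
FPKM of a selection of the guidance genes called between neural and facial tissue, 1 panel per gene, with 1 point per library by tissue and a bar at the mean with its SD. Sema5b and Dcc lie between 5.54 and 24.3 FPKM in brain and at or below 2.86 FPKM elsewhere, and Ephb3 and Sema3f lie at or above 21.6 FPKM in facial libraries and at or below 13.8 FPKM in brain.

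Ephrins are the membrane-bound ligands of Eph receptors. Of the 8 ephrin genes, limma called 0 higher in neural tissue as a whole. Over all genes, 6.64% were called higher against the face and 8.05% against limb. At an unadjusted p under 0.05 in limma, 1 ephrin was higher against the face and 2 against limb, and the share of all genes at that p was not counted. Efna1 and Efna4, which encode ephrins held by a lipid anchor, were called lower against both facial tissue and limb, with 4.64% and 4.36% of all genes called lower. Efna1 had 3.69, 4.46 and 5.30 FPKM in dB and 2.04, 4.07 and 6.74 in vB. It had 7.89, 11.9 and 14.4 FPKM in FNP, 9.91, 10.5 and 12.7 in MNP, 8.23, 9.71, 10.7, 10.9 and 11.4 in MXP and 12.2, 18.1 and 21.1 in limb. Brain did not overlap with any other tissue, and the differences were -1.17 (SE 0.12, adjusted p = 1.83e-10) against facial tissue and -1.77 (SE 0.15, adjusted p = 1.34e-11) against limb. Efna4 had 10.3, 12.3 and 15.2 FPKM in dB and 7.74, 9.84 and 17.4 in vB. In the remaining tissues Efna4 was even, with 26.2, 29.7 and 34.5 FPKM in FNP, 28.5, 31.9 and 32.9 in MNP, 29.5, 30.0, 31.7, 32.0 and 33.3 in MXP and 24.8, 30.2 and 34.8 in limb. All brain libraries lay below all others, with differences of -1.33 (SE 0.09, adjusted p = 6.86e-15) against facial tissue and -1.29 (SE 0.11, adjusted p = 2.19e-11) against limb.

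Efna5, another lipid-anchored ephrin, was highest in FNP. It had 4.94, 7.86 and 10.1 FPKM in dB and 4.55, 8.99 and 11.9 in vB. Efna5 had 16.9, 19.5 and 31.0 FPKM in FNP, against 6.96, 10.3 and 14.6 in MNP, 7.38, 10.3, 10.5, 12.6 and 15.8 in MXP and 3.54, 5.26 and 7.36 in limb. No library of another tissue reached FNP. Facial tissue was above limb by 1.23 (SE 0.18, adjusted p = 2.99e-06), and FNP was above MNP by 1.003 (SE 0.21, adjusted p = 0.00137). Taken alone, FNP was called higher than limb, and MNP and MXP were not. The FNP minus MXP difference, 0.90 (SE 0.22, adjusted p = 0.00902), was under a fold of 2. The tables hold a longer and a shorter Efna5 transcript that differ by 81 bases. GENCODE (GRCm38) has a coding exon of that length, exon 4 of 5, at chr17:62613316-62613396 on the minus strand, matched by length alone. It is shown in capitals because by that match the whole exon is the difference:
Efna5 exon: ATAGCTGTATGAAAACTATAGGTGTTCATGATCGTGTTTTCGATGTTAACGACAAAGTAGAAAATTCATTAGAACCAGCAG
The longer form held 62.5, 76.1 and 86.0% of the FPKM of the pair in facial libraries, against 82.9, 92.1 and 100% in limb. The highest 2 MNP libraries lay inside the range of limb, and the other facial libraries lay below it. On the most abundant transcript alone, the facial minus limb difference was 0.96 and the FNP minus MNP difference was 0.93, and neither was called.

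Efnb1, a transmembrane ephrin whose human form is mutated in craniofrontonasal syndrome, had in dB the highest tissue mean of any of the 54 genes. It had 38.1, 77.6 and 90.4 FPKM in dB and 8.91, 48.2 and 58.1 in vB. It had 24.8, 33.1 and 42.2 FPKM in FNP, 22.1, 25.0 and 33.4 in MNP, 20.6, 25.5, 27.0, 33.5 and 37.5 in MXP and 20.2, 37.4 and 44.6 in limb. Replicate 4 was the lowest library in dB (38.1 FPKM) and in vB (8.91 FPKM), and the neural minus facial difference, 0.79 (SE 0.18, adjusted p = 0.000452), was under a fold of 2. Without every replicate 4, a setting added after the data were seen, that difference was 1.03 and was called. Taken alone, dB was called higher than every facial prominence and limb for Efnb1, by 1.08 (SE 0.28, adjusted p = 0.00274) against FNP, by 1.37 against MNP, by 1.28 against MXP and by 1.002 against limb. None of the differences of vB from these tissues was called. The other transmembrane ephrins, Efnb2 and Efnb3, had tissue means from 18.1 in limb to 29.8 FPKM in dB and from 24.4 in MXP to 33.6 FPKM in vB. Efna2 ran from 29.0 in vB to 33.4 FPKM in limb and Efna3 from 2.23 in MNP to 5.15 FPKM in limb, and none of these 4 ephrins was called in the 7 comparisons.

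Eph receptors differed in both directions. Of the 11, 3 were higher and 2 lower in brain than in the face (6.64% and 4.64% of all genes), and 5 were higher and 2 lower than in limb (8.05% and 4.36% of all genes). Ephb1, a receptor of transmembrane ephrins, had 3.03, 5.79 and 11.1 FPKM in dB and 3.62, 14.2 and 23.0 in vB. It had 1.44, 1.97 and 3.83 FPKM in FNP, 0.511, 1.05 and 2.43 in MNP, 0.301, 0.335, 0.477, 0.716 and 0.962 in MXP and 0.257, 0.359 and 0.924 in limb. Brain and limb did not overlap, and the FNP libraries with most Ephb1 were replicates 4 and 5 (3.83 and 3.20 FPKM). The differences of Ephb1 were 2.13 (SE 0.18, adjusted p = 6.42e-12) against facial tissue and 2.74 (SE 0.24, adjusted p = 2.05e-11) against limb. Epha5, a receptor of lipid-anchored ephrins with a role in brain map formation, had 5.04, 6.05 and 13.2 FPKM in dB and 1.92, 6.03 and 11.4 in vB. It had 0.142, 0.239 and 0.856 FPKM in FNP, 0.131, 0.360 and 0.762 in MNP, 0.117, 0.339, 0.761, 0.934 and 1.18 in MXP and 0.503, 0.577 and 0.774 in limb. Every brain library was above every other library, with differences of 2.31 (SE 0.16, adjusted p = 4.49e-14) against facial tissue and 2.14 (SE 0.21, adjusted p = 3.56e-10) against limb.

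Ephb2, also a receptor of transmembrane ephrins, was expressed in all tissues and more in brain. It had 17.8, 34.0 and 45.7 FPKM in dB and 9.52, 33.7 and 47.0 in vB, against 13.4, 16.1 and 18.1 in FNP, 9.42, 11.1 and 14.5 in MNP, 11.9, 12.8, 12.8, 14.4 and 18.2 in MXP and 6.85, 13.6 and 14.8 in limb. Only dB replicate 4 and vB replicate 4 lay within the facial range. The differences of Ephb2 were 1.11 (SE 0.16, adjusted p = 2.95e-07) against facial tissue and 1.24 (SE 0.21, adjusted p = 7.57e-06) against limb, and in replicates 4 to 6 alone the first was 0.80 and not called. Epha3, a receptor of lipid-anchored ephrins, had 10.7, 12.2 and 18.9 FPKM in dB and 9.67, 22.0 and 32.0 in vB. It had 3.67, 7.21 and 12.7 FPKM in FNP, 10.7, 18.8 and 30.2 in MNP, 5.92, 8.21, 8.89, 9.46 and 13.1 in MXP and 2.74, 4.98 and 8.20 in limb. Brain lay above limb in every library, by 1.55 (SE 0.25, adjusted p = 3.04e-06), and MNP reached the levels of vB.

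Ephb3 and Ephb4 were the receptors lower in brain. Ephb3, which acts with Ephb2 in closing the palate in mouse, had 3.05, 6.15 and 7.51 FPKM in dB and 1.05, 7.49 and 13.6 in vB. It had 26.1, 29.6 and 38.5 FPKM in FNP, 21.7, 24.8 and 34.2 in MNP, 21.6, 23.4, 27.7, 37.8 and 38.7 in MXP and 8.59, 20.6 and 29.1 in limb. No facial library reached the brain, and only limb replicate 4 (8.59 FPKM) did. The differences of Ephb3 were -2.06 (SE 0.19, adjusted p = 5.16e-11) against facial tissue and -1.45 (SE 0.26, adjusted p = 1.73e-05) against limb. Ephb4, the venous receptor of ephrin-B2, had 15.2, 19.3 and 24.0 FPKM in dB and 6.86, 11.3 and 25.0 in vB. It had 43.3, 48.3 and 51.1 FPKM in FNP, 41.6, 49.7 and 61.3 in MNP, 45.0, 47.1, 48.5, 57.6 and 60.5 in MXP and 27.5, 49.9 and 59.1 in limb. Every brain library lay below every other library, with differences of -1.59 (SE 0.14, adjusted p = 7.33e-12) against facial tissue and -1.45 (SE 0.18, adjusted p = 3.91e-08) against limb. The sum over 7 endothelial markers was 56.8 to 74.8 FPKM in dB and 26.4 to 77.1 FPKM in vB, against 53.7 to 61.7 FPKM in FNP, 59.0 to 72.3 in MNP, 41.0 to 59.9 in MXP and 48.1 to 70.0 in limb.

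Of the other Eph receptors, Epha4, which guides motor axons in the limb, had tissue means from 13.7 in vB to 29.6 FPKM in MXP and Epha7 from 5.87 in limb to 12.4 FPKM in FNP. Epha2 ran from 1.64 in MXP to 4.38 FPKM in limb and Ephb6, which lacks kinase activity, from 3.63 in vB to 7.92 FPKM in MXP. These 4 receptors were called in none of the 7 comparisons, though some of their differences under a fold of 2 had a small adjusted p. Epha7 was higher in dB than in vB, with no overlap, by 0.79 (SE 0.14, adjusted p = 0.000302). It was higher in facial tissue than in limb, also with no overlap, by 0.89 (SE 0.11, adjusted p = 4.1e-07). For Epha2 every limb library lay above every other library, and the facial minus limb difference was -0.98 (SE 0.11, adjusted p = 7.46e-08). Epha8 is described with the comparison of both brain regions.

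Semaphorins are mostly repellents, and 4 of 10 were lower and 1 was higher in brain than in the face, with 4.64% of all genes called lower and 6.64% higher. Sema5b, a transmembrane semaphorin with thrombospondin repeats, had the largest neural minus facial and neural minus limb differences of the 53 genes at a pseudocount of 1. At a pseudocount of 0.1 those of Robo3 (4.87 and 5.54) and Dcc (4.42 and 5.31) exceeded those of Sema5b (4.24 and 4.38). Sema5b had 12.02, 18.8 and 20.5 FPKM in dB and 5.54, 19.5 and 23.4 in vB. It had 0.333, 0.720 and 2.86 FPKM in FNP, 0.562, 0.631 and 1.19 in MNP, 0.352, 0.657, 0.789, 0.942 and 1.60 in MXP and 0.188, 0.893 and 1.42 in limb. Brain did not overlap with the other tissues even at vB replicate 4 (5.54 FPKM), and the differences were 3.27 (SE 0.17, adjusted p = 3.68e-17) against facial tissue and 3.33 (SE 0.23, adjusted p = 4.74e-14) against limb. Sema5a, its closest relative, ran the other way, with 1.06, 3.48 and 8.17 FPKM in dB and 1.08, 2.69 and 6.504 in vB. It had 4.32, 6.71 and 13.9 FPKM in FNP, 9.46, 14.6 and 30.2 in MNP, 8.84, 11.0, 14.8, 20.9 and 30.1 in MXP and 5.06, 5.76 and 7.72 in limb. Sema5a was lower in brain than in the face by -1.69 (SE 0.21, adjusted p = 2.82e-08), with overlap of both brain regions with FNP.

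The secreted semaphorins Sema3a, Sema3d and Sema3f were lower in brain against both facial tissue and limb. Sema3a, the ligand of Nrp1 that repels sensory and motor axons, had 2.92, 3.93 and 5.16 FPKM in dB and 1.56, 2.93 and 5.49 in vB. It had 11.2, 18.6 and 25.0 FPKM in FNP, 18.1, 22.8 and 31.5 in MNP, 14.3, 15.3, 21.1, 21.5 and 22.7 in MXP and 10.02, 11.6 and 13.5 in limb. Brain lay below every other library, by -2.24 (SE 0.12, adjusted p = 7.59e-17) against facial tissue and -1.51 (SE 0.16, adjusted p = 1.54e-09) against limb. On its most abundant transcript alone the limb difference of Sema3a was -0.57 and was not called. Sema3f, the ligand of Nrp2, had 6.39, 9.27 and 9.97 FPKM in dB and 3.02, 5.96 and 13.8 in vB. It had 26.5, 29.6 and 41.5 FPKM in FNP, 22.8, 26.6 and 36.3 in MNP, 26.1, 28.4, 29.1, 39.9 and 41.8 in MXP and 14.7, 25.8 and 36.6 in limb. No brain library of Sema3f reached another tissue, and the differences were -1.90 (SE 0.14, adjusted p = 1.28e-13) against facial tissue and -1.61 (SE 0.18, adjusted p = 6.13e-09) against limb. Sema3d, a secreted relative, had 0.203, 0.499 and 1.36 FPKM over the 12 neural libraries, against 2.24, 4.26 and 11.1 FPKM over the 17 facial libraries and 2.29, 2.95 and 4.96 FPKM in limb. It did not overlap either, with differences of -1.87 (SE 0.13, adjusted p = 6.96e-14) against facial tissue and -1.44 (SE 0.18, adjusted p = 2.55e-08) against limb.

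The remaining semaphorins were low to moderate and were called in none of the 7 comparisons. Tissue means of Sema3c, needed in the heart's outflow tract, ran from 2.505 in vB to 4.72 FPKM in MXP. Those of Sema3e, the ligand of Plxnd1, ran from 0.273 in limb to 1.03 FPKM in MXP. Sema4d, a ligand of Plxnb1, ran from 2.15 in MNP to 4.12 FPKM in FNP. The transmembrane ligands of class A plexins ran from 7.19 in limb to 8.88 FPKM in FNP for Sema6a and from 2.69 in limb to 4.61 FPKM in dB for Sema6d.

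Plexins are the signalling receptors of semaphorins, and most of the 8 varied little. Plxnc1, the receptor of the lipid-anchored semaphorin Sema7a, had 2.37, 3.77 and 5.92 FPKM in dB and 2.44, 6.02 and 11.0 in vB. It had 0.970, 1.22 and 1.45 FPKM in FNP, 0.754, 0.929 and 1.33 in MNP, 1.01, 1.13, 1.14, 1.46 and 2.46 in MXP and 0.251, 0.466 and 0.622 in limb. Only the highest MXP library reached the brain, and the differences were 1.37 (SE 0.12, adjusted p = 2.54e-11) against facial tissue and 1.96 (SE 0.17, adjusted p = 7.41e-12) against limb. Plxna2, a receptor of class 6 semaphorins, had 2.77, 4.36 and 10.8 FPKM in dB and 2.32, 8.01 and 18.0 in vB. It had 3.21, 3.95 and 4.64 FPKM in FNP, 3.62, 5.93 and 7.50 in MNP, 4.08, 4.40, 4.53, 7.66 and 8.47 in MXP and 0.998, 1.53 and 2.27 in limb. Limb lay below every other library. The neural minus limb difference of Plxna2 was 1.45 (SE 0.24, adjusted p = 5.69e-06) and the facial minus limb difference was 1.25 (SE 0.23, adjusted p = 0.000134).

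Plxnb2, a receptor of class 4 semaphorins, had the highest levels of the plexins and no call in the 7 comparisons. It had 22.5, 37.3 and 53.4 FPKM in dB and 13.8, 33.7 and 43.0 in vB. It had 35.03, 42.4 and 53.5 FPKM in FNP, 37.1, 41.7 and 58.5 in MNP, 35.9, 40.1, 41.4, 45.1 and 58.9 in MXP and 24.7, 39.3 and 44.3 in limb. All tissues overlapped. Means of the other plexins ran from 13.2 in limb to 21.4 FPKM in vB for Plxna1, from 5.49 in limb to 10.7 FPKM in vB for Plxna3 and from 0.439 in FNP to 1.91 FPKM in MXP for Plxna4, which pair with neuropilins. They ran from 14.8 in MXP to 24.1 FPKM in vB for Plxnb1 and from 7.65 in vB to 14.8 FPKM in MNP for the vascular Plxnd1.

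Neuropilins are the binding receptors of the secreted semaphorins. Nrp2 was highest in limb. It had 3.91, 9.07 and 14.2 FPKM in dB and 2.19, 9.89 and 17.7 in vB. Nrp2 had 9.27, 14.1 and 23.1 FPKM in FNP, 10.1, 15.8 and 32.4 in MNP, 16.6, 17.7, 19.6, 27.5 and 32.7 in MXP and 12.8, 42.5 and 61.5 in limb. Limb replicate 4, at 12.8 FPKM, was the only limb library inside the neural range. The neural minus limb difference was -2.003 (SE 0.30, adjusted p = 1.05e-06), and the facial minus limb difference was -1.11 (SE 0.28, adjusted p = 0.00615). The facial call was lost in replicates 4 to 6 alone and on the most abundant transcript alone, where the differences were -1.004 and -0.99. Nrp1, the receptor of Sema3a, was also highest in limb, with tissue means from 4.47 in dB to 10.8 FPKM in limb, and its neural minus limb difference, -0.91 (SE 0.14, adjusted p = 1.03e-06), was under a fold of 2.

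Between facial tissue and limb 4 of the 53 guidance genes were called. Higher in facial tissue were 2 of the 53 genes, Plxna2 and Efna5, with 1.51% of all genes called, and lower were 2, Robo2 and Nrp2, with 1.11% of all genes called. Of these 4 genes, Plxna2 alone separated all facial from all limb libraries. Among all 53 tested genes 5 did so, Plxna2, Epha2, Epha7, Nrp1 and Plxnc1, and 2.58% of all genes did.

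Between dB and vB, limma called 1 guidance gene higher in dB, with 0.954% of all genes called, and 0 lower, with 0.438% of all genes called. At an unadjusted p under 0.05 in limma, 11 were higher and 4 lower in dB, and the share of all genes at that p was not counted. The called gene was Epha8, an Eph receptor of the dorsal midbrain. Epha8 had 1.75, 3.94 and 5.63 FPKM in dB, against 0.303, 0.449 and 1.80 FPKM in vB. It had 0.259, 0.430 and 0.527 FPKM in FNP, 0.122, 0.183 and 0.287 in MNP, 1.24, 1.36, 1.48, 1.57 and 1.94 in MXP and 0.0533, 0.367 and 0.542 in limb. Replicate 4 was the lowest dB library, at 1.75 FPKM, and fell under the highest vB library, replicate 5 at 1.80 FPKM. The dB minus vB difference of Epha8 was 1.49 (SE 0.16, adjusted p = 1.33e-07), and in replicates 4 to 6 alone it was 1.04 and was not called. Epha8 was also higher in brain than in limb by 1.06 (SE 0.14, adjusted p = 1.15e-07), a call that replicates 1 to 3 alone (0.94) and quantile normalization (0.87) did not keep. Taken alone, dB was called higher than limb for Epha8, while vB overlapped with limb and was not called.

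The count for dB and vB depended on which vB libraries were used. In vB replicate 4 the sum of 8 ventral brain markers was 49.5 FPKM, against 142 to 276 FPKM in the other vB libraries and 21.3 to 47.9 FPKM in dB. Without vB replicate 4 the comparison called 3 guidance genes, Epha8 and, lower in dB, Ephb1 and Ntn1. With all libraries Ephb1 differed by -0.92 (SE 0.28, adjusted p = 0.052) and Ntn1 by -0.93 (SE 0.25, adjusted p = 0.0249), and without vB replicate 4 by -1.22 and -1.20. The mesenchyme marker sum was 206, 281 and 350 FPKM in vB replicates 1, 4 and 5, against 6.78 to 56.3 FPKM in the other vB libraries. In dB that sum was 212 to 357 FPKM, and its part was not tested. Without vB replicates 1, 4 and 5, brain region and mesenchyme sum cannot be told apart. Without these 3 libraries 7 guidance genes were called, and of all 14050 genes tested there 457 were called higher and 290 lower in dB. Epha8, Plxnd1 (1.02) and Slit3 (1.002) were higher in dB, and Ephb1 (-1.37), Ntn1 (-1.24), Plxna2 (-1.16) and Epha3 (-1.11) were lower.

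The facial prominences were also compared with each other. FNP against MNP had 1 gene higher, Efna5, with 1.69% of all genes called, and 2 lower, Epha3 and Sema5a, with 0.99% of all genes called. Epha3 differed by -1.25 (SE 0.28, adjusted p = 0.00286) and Sema5a by -1.04 (SE 0.32, adjusted p = 0.0422), and both genes overlapped between FNP and MNP. FNP against MXP had 2 genes higher, Unc5c and Ephb1, with 1.53% of all genes called, and 0 lower, with 0.746% of all genes called. At an unadjusted p under 0.05 in limma, 7 were higher and 7 lower in FNP than in MXP, with the share of all genes at that p not counted. MNP against MXP had 1 gene higher, Unc5c, with 0.689% of all genes called, and 1 lower, Epha8, with 0.344% of all genes called.

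Unc5c was lower in MXP than in the other prominences, and only MNP was separated from it. It had 3.16, 3.87 and 5.21 FPKM in dB and 1.47, 2.09 and 3.14 in vB. Unc5c had 2.97, 6.35 and 13.2 FPKM in FNP, 6.57, 7.91 and 9.35 in MNP, 1.25, 1.57, 2.03, 2.249 and 3.83 in MXP and 3.78, 4.19 and 8.48 in limb. MNP and MXP did not overlap, and their difference was 1.52 (SE 0.23, adjusted p = 5.57e-05). FNP overlapped with MXP and exceeded it by 1.19 (SE 0.23, adjusted p = 0.000722), a call lost in replicates 4 to 6 alone (1.06) and on the most abundant transcript alone (1.18). Epha8 was lower in MNP than in MXP, with no overlap, by -1.08 (SE 0.17, adjusted p = 8.23e-05), and in replicates 4 to 6 alone that difference was -1.02 and not called.

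Ephb1 was higher in FNP than in MXP in every library, by 1.07 (SE 0.29, adjusted p = 0.0201). The call was lost under 8 of 18 alternatives. These were no MXP replicate 3 (1.01), no MXP replicate 6 (1.005), no replicate 4 of any tissue (0.95), quantile normalization (0.91), replicates 1 to 3 alone (0.82), replicates 4 to 6 alone (1.32), transcripts of at least 200 bases (1.08) and no FNP replicates 4 and 5 (0.82), the FNP libraries with the largest neural progenitor sums. The calls of Epha3 and Sema5a between FNP and MNP were lost without FNP replicates 4 and 5 as well, with differences of -0.95 and -0.81. All 3 calls between FNP and MNP were lost with replicates 1 to 3 alone and with replicates 4 to 6 alone. That of Efna5 was also lost after quantile normalization (0.99) and with the run as a term (0.92), and that of Sema5a with a pseudocount of 0.1 (-1.14), with transcripts of at least 200 bases (-1.02) and on the most abundant transcript alone (-1.13).

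**Figure D5:**
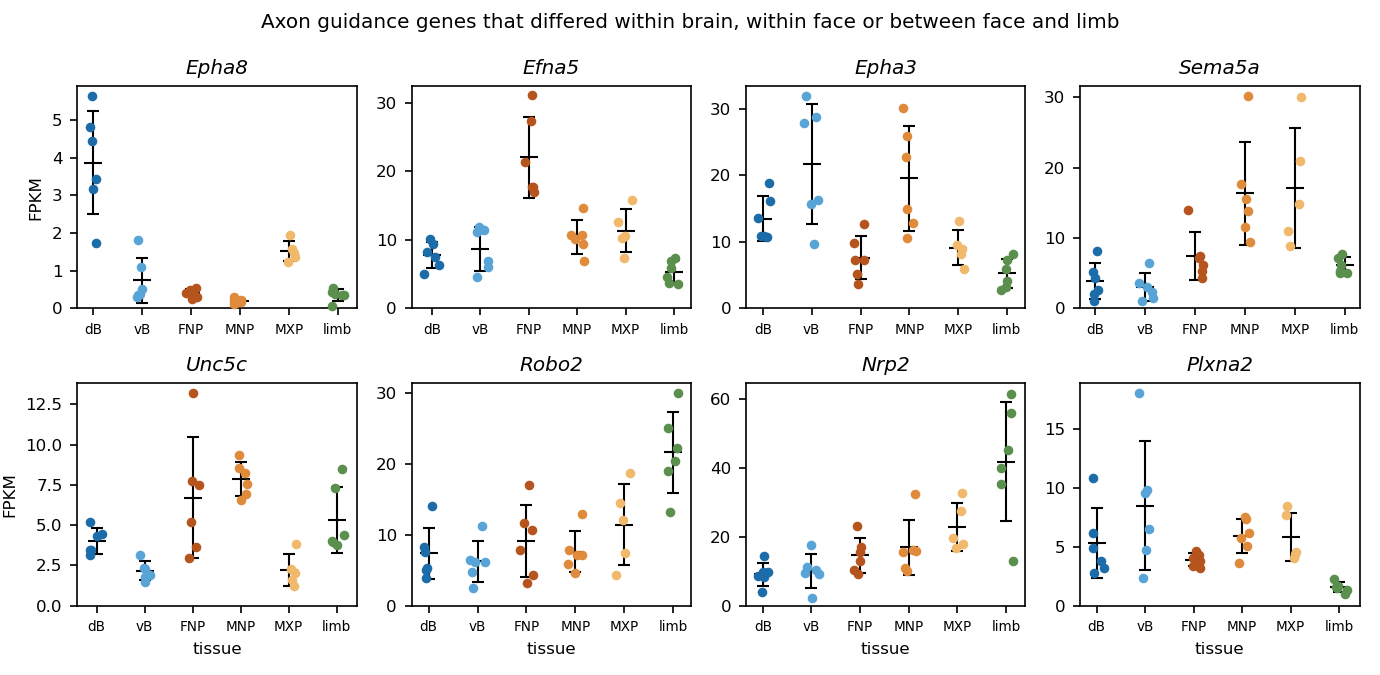
FPKM of guidance genes called between brain regions, between facial prominences or between facial tissue and limb, 1 panel per gene, with 1 point per library by tissue and a bar at the mean with its SD. Every FNP library of Efna5 lies at or above 16.9 FPKM and every other library at or below 15.8 FPKM, and the 5 MXP libraries of Unc5c lie at or below 3.83 FPKM, under all 6 MNP libraries.

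Promoter sequences give a context for these levels. RefSeq windows (GRCm38.p6) of 250 bases before to 50 after a gene's start were found for 44 of the 54 genes. Their median GC content was 66.8%, and over all 27025 windows it was 52.7%. GGGCGG, the GC box, stood on either strand in 33 of the 44 windows (75.0%) and in 35.6% of all windows. CCAAT stood in 13 (29.5%, against 37.8% of all windows) and TATAAA in 2 (4.5%, against 14.1%). The E-box CAGCTG stood in 2 (4.5%, against 16.2%) and the E-box CAGATG in 1 (2.3%, against 17.3%). TAATTA, a core of homeodomain sites, stood in 2, the windows of Epha5 and Robo3 (4.5%, against 5.4%), no more often than over all windows. GC content was not matched in these shares, and a match is not a bound site.

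The windows of Robo3 (chr9:37433126-37433425, minus strand) and Epha5 (chr5:84417333-84417632, minus strand) are shown 5′ to 3′ because they are the only ones with TAATTA, and they were chosen after their levels were seen. Capitals mark TAATTA and GGGCGG or its reverse complement, which overlaps itself once in Robo3:
Robo3 promoter: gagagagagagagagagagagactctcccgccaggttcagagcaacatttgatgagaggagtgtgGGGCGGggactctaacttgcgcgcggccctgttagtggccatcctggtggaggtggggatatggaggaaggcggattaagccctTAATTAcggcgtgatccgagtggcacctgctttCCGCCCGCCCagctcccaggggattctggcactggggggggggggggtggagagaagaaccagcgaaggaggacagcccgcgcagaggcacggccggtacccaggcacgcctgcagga
Epha5 promoter: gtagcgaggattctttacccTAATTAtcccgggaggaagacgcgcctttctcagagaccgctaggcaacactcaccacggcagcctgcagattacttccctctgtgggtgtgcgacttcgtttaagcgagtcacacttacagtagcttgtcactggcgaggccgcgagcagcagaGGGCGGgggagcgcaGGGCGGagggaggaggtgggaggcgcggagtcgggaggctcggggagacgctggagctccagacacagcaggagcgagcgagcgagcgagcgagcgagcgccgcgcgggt
The Robo3 window holds 1 TAATTA and 3 GC boxes, and the Epha5 window holds 1 TAATTA and 2 GC boxes. Both genes were low outside the brain, Robo3 with at most 1.47 FPKM and Epha5 with at most 1.18 FPKM in any facial or limb library. Whether TAATTA bears on these levels was not tested.

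Genes around these families were compared as well. Of 22 further members of the same families 17 were tested. Brain was higher than the face for 3 of them and lower for 2, and the counts against limb were the same. The higher ones were the netrin relative Ntn4 (1.51 (SE 0.15, adjusted p = 1.12e-10)), the netrin-G gene Ntng2 (1.19 (SE 0.13, adjusted p = 2.96e-09)) and Epha10 (1.06 (SE 0.08, adjusted p = 6.05e-13)). The lower ones against the face were Epha1 (-1.53 (SE 0.11, adjusted p = 3.08e-14)) and Ntn3 (-1.23 (SE 0.17, adjusted p = 2.85e-07)). Of 44 co-receptors and downstream genes 40 were tested, 11 were higher and 3 lower in brain than in the face, and 14 were higher and 1 lower than in limb. Over all genes, 6.64% were called higher and 4.64% lower against the face, and 8.05% higher and 4.36% lower against limb. Their median difference against the face was 0.50, with -0.02 over all genes. Among the higher were Dpysl5 (2.96 (SE 0.19, adjusted p = 6.86e-15)) and Crmp1 (2.59 (SE 0.14, adjusted p = 3.08e-17)), which relay semaphorin signals in growth cones, and Srgap3 (2.81 (SE 0.18, adjusted p = 3.49e-15)), which acts below Robo receptors. Lower were Farp1 (-1.59 (SE 0.15, adjusted p = 8.62e-11)), Flrt2 (-1.24 (SE 0.18, adjusted p = 3.06e-07)) and Dock1 (-1.13 (SE 0.14, adjusted p = 3.08e-08)). Flrt2, a ligand of Unc5 receptors, was also higher in facial tissue than in limb by 1.72 (SE 0.22, adjusted p = 4.42e-07). Flrt3, a relative of Flrt2, was lower in FNP than in MNP by -1.25 (SE 0.11, adjusted p = 4.09e-10).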

How the data were processed

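Poly(A) RNA of 35 libraries was sequenced by the authors in pairs of 75 bases. The authors deposited Cufflinks tables on mm10 with FPKM per transcript, all 163 transcripts of the 54 genes with status OK, and a coverage column, used here for depth only. Bowtie2, DESeq2 and mm10 appear in the submitters' processing notes, and RSEM, RUVSeq and Strand NGS in the paper's methods. The aligner behind the FPKM estimates is not given in the sources used here. The methods state 6 independent replicates a tissue, and 5 MXP libraries were analysed.

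Of the transcripts, 59055 were used and 65 could not be read. FPKM was summed per gene and log2(FPKM + 1) was fitted in R 4.3.3 by limma 3.58.1 (robust, with a trend), 1 mean per tissue and no covariate. The 13934 genes that averaged 1 FPKM or more in any tissue were tested, adjusted by Benjamini-Hochberg within each contrast. A call needed an adjusted p under 0.05 together with a fold of 2 or more. The script was tested on simulated data. Other steps ran in Python 3.11.15 (pandas 2.3.3). No pair of libraries was identical, with a highest correlation of 0.9895. Replicates 1 to 3 and replicates 4 to 6 came from different runs, going by the run given for each table, and transcripts under 200 bases held 19.1 to 39.2% of FPKM in replicate 1 libraries and 0.653 to 10.3% in the others.

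The genes, gene lists and tests were chosen with earlier results of these data known. Values by tissue are given in full for the 3 called genes of each class with the largest fold change in a comparison, for the gene with the highest mean of its class and where a count was 5 or fewer, and the others get their range. Sema3d, Ephb2, Unc5a, Epha2 and Epha7 were given more after their values were seen. Of the other lists, the 3 called genes with the largest fold change per direction were named. Alternatives were a pseudocount of 0.1, quantile normalization, no filter on low genes, transcripts of at least 200 bases, the replicate number or run as a term, subsets of libraries, no fold threshold and the most abundant transcript of a gene. Promoter windows are from RefSeq (GRCm38.p6) and exons from GENCODE vM21.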

Additional observations from a re-analysis of the deposited data

Results flagged for a closer look

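Wherever a gene averaged 1 FPKM or more in a tissue, the highest and the lowest library of a tissue were compared with the others by Dixon's ratio on log2(FPKM + 1), at its 95% critical value. Of 278 groups, 31 had a library that stood apart, and chance gives about 1 in 20. Replicate 4 held 27 of the 31: 12 in vB, 8 in dB and 7 in limb, always as the lowest library.

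In vB replicate 4, Ephb2 had 9.52 FPKM, against 32.7 to 47 FPKM in the other vB libraries, and Ephb3 had 1.05, against 6.16 to 13.6. Ephb6 had 0.824 FPKM there, against 3.75 to 4.55, and Efnb1 had 8.91, against 37 to 58.1. Efnb3 had 7.31 FPKM there, against 27.3 to 45.3, and Sema5b had 5.54, against 14.8 to 23.4. Plxna1 had 5.16 FPKM there, against 18.4 to 37.5, and Plxnb1 had 3.39, against 22.1 to 34.5. Nrp2 had 2.19 FPKM there, against 9.09 to 17.7, and Ntn1 had 7.98, against 20.4 to 30.1. Unc5b had 1.2 FPKM there, against 5.56 to 7.7, and Rgma had 6.06, against 26.1 to 46.

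In dB replicate 4, Ephb3 had 3.05 FPKM, against 5.64 to 7.51 FPKM in the other dB libraries, and Ephb6 had 1.96, against 4.16 to 5.17. Efnb1 had 38.1 FPKM there, against 66.7 to 90.4, and Efnb3 had 19.5, against 28.5 to 32.8. Sema3f had 6.39 FPKM there, against 8.47 to 9.97, and Sema5b had 12, against 18 to 20.5. Plxnb1 had 9.74 FPKM there, against 21.2 to 28.1, and Unc5b had 3.58, against 7.44 to 10.

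In limb replicate 4, Ephb2 had 6.85 FPKM, against 12.4 to 14.8 FPKM in the other limb libraries, and Efna2 had 13.1, against 30.9 to 43. Plxnb1 had 6.66 FPKM there, against 16.3 to 22.4, and Nrp2 had 12.8, against 35.2 to 61.5. Unc5b had 8.42 FPKM there, against 21.9 to 27.5, and Slit3 had 1.95, against 6.26 to 9.19. Rgmb had 3.26 FPKM there, against 7.92 to 11.1.

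Sema3e was highest in MXP replicate 1, with 1.74 FPKM, against 0.793 to 0.978 FPKM in the other MXP libraries. Plxna1 was highest in FNP replicate 2, with 22.2 FPKM, against 16.3 to 17.9 FPKM in the other FNP libraries. Dcc was highest in dB replicate 2, with 19.6 FPKM, against 6.48 to 9.6 FPKM in the other dB libraries. Rgmb was lowest in MNP replicate 3, with 4.8 FPKM, against 6.28 to 7.31 FPKM in the other MNP libraries.

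The sum over 4 blood markers was 32890 FPKM in vB replicate 4, against 3380 to 15310 FPKM in the other vB libraries. In dB replicate 4 the sum was 22790 FPKM, against 7473 to 26230 FPKM in the other dB libraries. In limb replicate 4 the sum was 19220 FPKM, against 7568 to 15420 FPKM in the other limb libraries. Whether it bears on the low values was not tested.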

How the results depend on the processing

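The 59 calls of a gene in 1 of the 7 comparisons were repeated under 18 alternatives, 2 of them added after the data were seen (without FNP replicates 4 and 5, and without every replicate 4). No difference reversed, and 41 of the 59 calls were kept under all 18: 18 of 20 for neural minus facial, 21 of 27 for neural minus limb, 1 of 4 for facial minus limb, 0 of 1 for dB minus vB, 0 of 3 for FNP minus MNP, 0 of 2 for FNP minus MXP and 1 of 2 for MNP minus MXP.

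Counts of called genes moved by over 1.5 times as follows, and where no construction shows it the cause was not tested. With no fold threshold 38 genes passed for neural minus facial, 19 for facial minus limb, 3 for dB minus vB, 5 for FNP minus MNP and 6 for FNP minus MXP, with 53.6%, 13.6%, 4.5%, 7.8% and 6.19% of all genes passing in the same order. With a pseudocount of 0.1 the counts were 10 for facial minus limb and 6 for FNP minus MXP. Of all genes, 594 were then called higher and 256 lower for facial minus limb, against 211 and 154 with a pseudocount of 1. For FNP minus MXP 430 of all genes were called higher and 149 lower, against 213 and 104. The count for dB minus vB was 3 after quantile normalization, with the run as a term, without vB replicate 4 and without every replicate 4, and 2 on the most abundant transcript. The count for dB minus vB was 7 without vB replicates 1, 4 and 5, which hold much mesenchymal RNA or stand apart. The dB libraries hold much mesenchymal RNA too. Fewer libraries (replicates 1 to 3) gave 2 for dB minus vB, 0 for FNP minus MNP and 1 for FNP minus MXP, and replicates 4 to 6 gave 0, 1 and 0, with 1 for MNP minus MXP. Of all genes, replicates 1 to 3 called 187 higher and 79 lower, 229 and 115, and 199 and 79, in the same order. Replicates 4 to 6 called 17 and 7, 121 and 78, and 71 and 37, with 31 and 15 for MNP minus MXP. For FNP minus MXP the count was 1 with transcripts of at least 200 bases, without every replicate 4, without FNP replicates 4 and 5 and on the most abundant transcript, and 1 to 4 with each MXP library left out. For FNP minus MNP it was 1 without FNP replicates 4 and 5 and on the most abundant transcript, with 255 of all genes higher and 114 lower, and 213 and 128. For FNP minus MXP 205 of all genes were higher and 93 lower with transcripts of at least 200 bases. That comparison had 223 and 93 without every replicate 4, 231 and 82 without FNP replicates 4 and 5, and 195 and 94 on the most abundant transcript. With each MXP library left out it had 169 to 226 higher and 86 to 128 lower.

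With the replicate number as a block, the replicate block kept 20 genes for neural minus facial and all 59 calls, and added Epha3 for MNP minus MXP. Deviations of libraries of different tissues with the same number had a median correlation of 0.342 (0.008 to 0.698, over 0.1 in 78 of 85 pairs), and 32 of 35 libraries were closest on average to their own number, which is a hint from the data and not part of the design.

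With neither counts nor bounds in the tables, no interval of a single FPKM value is given, and genes under 1 FPKM rest on few fragments. All-gene medians moved by at most 0.07 under any scaling.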
